A study of Homo sapiens with 12 samples.

Results

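The average effect of hypoxia over RKO, A549 and H460 cells was measured as the mean of the 3 line effects, each line counting equally. All 12 of the 12 libraries of the series were used, 6 from hypoxia and 6 from normoxia, and 15595 of the 25369 genes in the count table could be tested. RKO is a colon carcinoma line, A549 a lung adenocarcinoma line and H460 a large cell lung carcinoma line. For 24 h each line was kept either in hypoxia (1% O2) or in normoxia, with 2 independent biological replicates in each of the 6 groups of line and oxygen, and poly(A)+ RNA was sequenced strand-specifically. RKO and A549 cells were grown in DMEM and H460 cells in RPMI in both conditions, so that line and medium cannot be told apart. No gene was edited and no drug was given. The comparison asks which transcripts change with low oxygen on the mean of the 3 lines, which a single line can carry. The lines are 3 established cultures and not a sample of tumours.

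Cells sense oxygen through prolyl hydroxylases, which mark the alpha subunits of hypoxia-inducible factors (HIF) for destruction by the VHL ubiquitin ligase. When oxygen falls, the alpha subunits, encoded by HIF1A and EPAS1, escape this mark, pair with ARNT and bind DNA at a short core motif. Known targets supply glucose uptake and glycolysis, keep pyruvate out of mitochondria, export acid, remodel collagen and recruit vessels, while low oxygen is also known to restrain ribosome production and the cell cycle.

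The libraries held 27350424 to 41757584 counted reads. The trimmed mean (TMM) scaling factor was 0.786 and 0.829 in the H460 hypoxia libraries and between 0.963 and 1.12 in the others, and the 10 most abundant genes held 7.79% and 7.23% of the H460 hypoxia reads against at most 6.01% elsewhere. Within each group the spread of replicates exceeded counting error (chi-square divided by its degrees of freedom, 9.60 to 72.0). It was lowest in H460 (12.9 in normoxia and 9.60 in hypoxia) and highest in A549 (72.0 and 68.5). Of the colon markers CDX1, CDX2, VIL1, LGALS4, KRT20 and MUC2, CDX2 alone exceeded 1.5 RPKM (reads scaled for gene length and library depth) in RKO, where it lay between 4.10 and 7.14. Of the lung markers, SFTPA1, SFTPB, SFTPC and SCGB1A1 were at or below 0.0659 RPKM in all A549 and H460 libraries, and NAPSA lay between 2.49 and 3.38 RPKM in A549. NKX2-1 was at 0.0291 and 0 RPKM in H460 normoxia and 1.15 and 1.125 RPKM in H460 hypoxia, and was called there (adjusted p = 1.51e-05). CDKN2A had no read in A549 or H460, where it is known to be deleted. In bulk libraries such as these, fewer cells expressing a gene and less RNA per cell cannot be told apart.

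On average over the lines, 2315 genes were higher in hypoxia (14.8% of those tested) and 1796 were lower (11.5%). Calls required an adjusted p (Benjamini-Hochberg, edgeR quasi-likelihood test) under 0.1 together with a fold change over 1.5. The estimate pointed the same way in all 3 lines for 1933 of the higher (83.5%) and 1513 of the lower genes (84.2%), and a call in the opposite direction in some line accompanied only 28 and 22 of them. With scaling by library size alone the median gene moved by -0.15 on the log2 scale and the split of calls changed from 2315 higher and 1796 lower to 1679 and 2673. Directions below are therefore relative to the TMM reference. Of the 4111 average calls 3475 were kept under that scaling. The direction of all 87 named genes called on average was the same there. That was nearly given in advance, since a fold change over 1.5 exceeds this shift. Of the 9 that were not called, HIF1AN, VHL and CREBBP turned, to -0.04, -0.11 and -0.07.

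Few average effects were called in every line. Of the 2315 higher genes, 339 were called higher in each of the 3 lines (2.17% of all genes tested), 1110 in 2 lines, 809 in 1 line and 57 in none. Of the 1796 lower genes, 139 were called lower in all 3 lines (0.891%), 852 in 2, 761 in 1 and 44 in none. As background, the RKO contrast alone called 18.9% of genes higher and 11.0% lower. The A549 contrast called 6.14% and 2.82%, and the H460 contrast 22.9% and 24.6%. Conditions did not overlap in any line for 334 of the 339 and for all 139 of these genes, against 9.49% and 8.68% of all genes tested, but these genes were chosen by the same measurements. With a separate fit of the 4 libraries of each line, the numbers called in all lines were 116 and 13, and 115 and 13 of these were among the 339 and the 139.

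**Figure D1:**
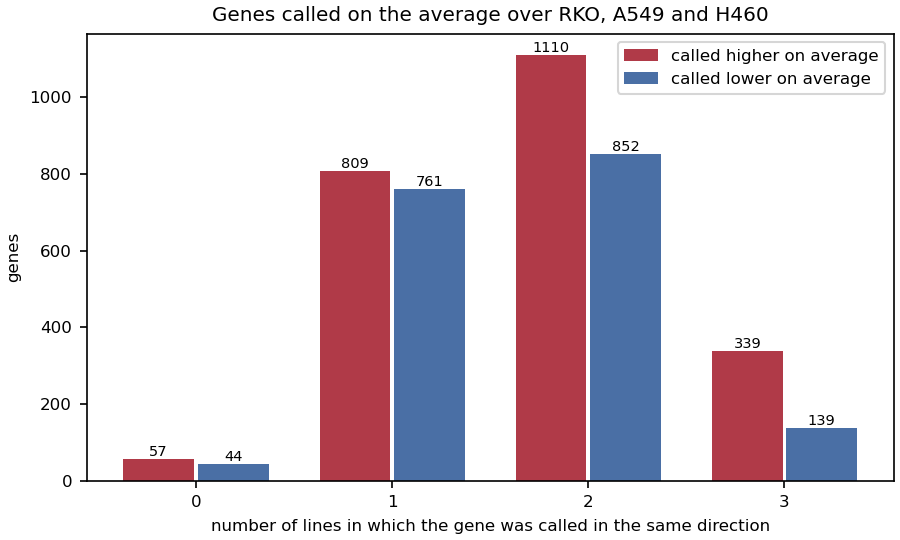
Number of genes called on the average over RKO, A549 and H460 (vertical axis) by the number of lines in which the same gene was called in the same direction (horizontal axis), for genes higher and lower in hypoxia. Most average calls were also calls in 1 or 2 lines, and 339 higher and 139 lower genes were called in all 3.

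A549 set the limit to what was shared. Its hypoxia replicate 2 stood further from normoxia than replicate 1 for 320 of the 339 shared higher genes and 136 of the 139 shared lower genes. These genes were chosen by calls that used both replicates, and the same count over all genes tested was not made. Without replicate 2 the shared counts were 95 higher and 7 lower, and without replicate 1 they were 551 and 400, while the average calls moved only between 2041 and 2468 higher and between 1589 and 2027 lower over all 12 such omissions. The counts called in all 3 lines are thus given for these libraries.

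The shared genes changed least in A549 and most in H460. The median log2 fold change of the 339 higher genes was 1.07 in A549, 1.44 in RKO and 1.84 in H460, and that of the 139 lower genes was -0.75, -1.08 and -1.60 in the same order. The effect was smallest in A549 for 215 of the 339 and 102 of the 139. A test of the 2 interaction terms found a difference in size between lines for 7615 of all genes tested (48.8%), for 192 of the 339 (56.6%) and for 82 of the 139 (59.0%). A change over 2-fold in every line was seen for 149 higher and 12 lower genes, and over 4-fold for 21 and 0. Of the 339 genes, 6 had a group with no read, for which the fitted fold depends on a prior count, and with those effects set at a floor of 3 counts the median of the averages was 1.51 in place of 1.54.

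**Figure D2:**
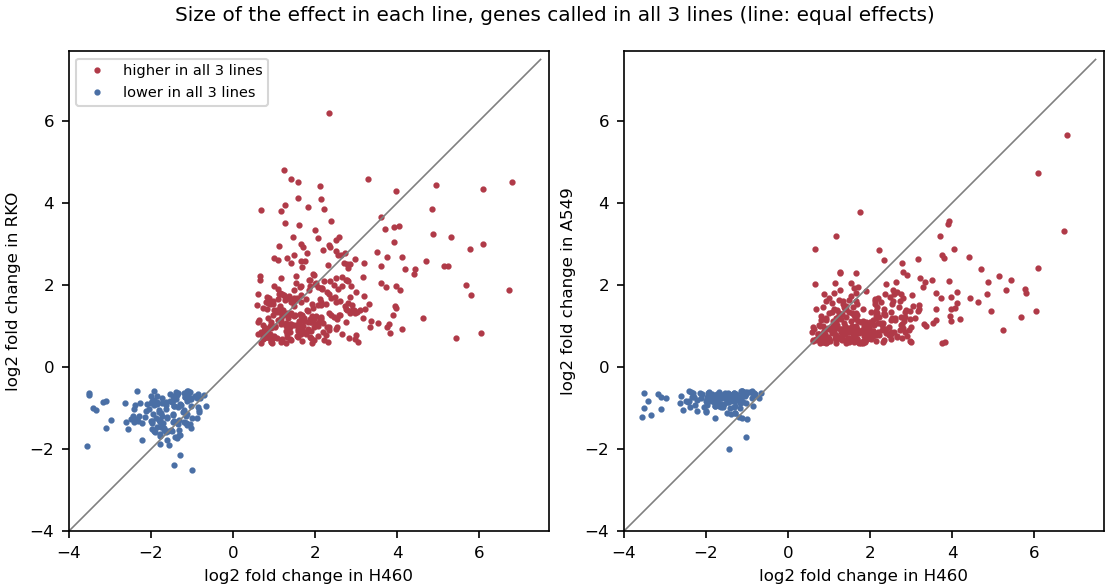
Log2 fold change in RKO (left) and in A549 (right) against that in H460 for the genes called in all 3 lines, without 6 genes that had a group with no read. Each point is a gene and the diagonal marks equal effects. The H460 effect was the largest for 202 of the 339 higher and 108 of the 139 lower genes.

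The core of the HIF binding motif is ACGTG or GCGTG, and a promoter sequence was taken from RefSeq (GRCh38.p14, 250 bases before to 50 after the transcript start) for 259 of the 339 shared higher, 109 of the 139 shared lower and 11851 of the tested genes. ACGTG on either strand was found in 32.4% of the shared higher, 40.4% of the shared lower and 26.1% of all tested promoters. GCGTG on either strand was found in 40.9%, 66.1% and 49.8%. Either motif was present in 57.5%, 84.4% and 61.9%, and in 48.4% of all 35116 RefSeq promoters of this length. The palindrome CACGTG, the E-box that MYC and clock factors can bind, holds ACGTG on both strands and was found in 10% of the shared higher, 25.7% of the shared lower and 9.97% of all tested promoters. These shares describe letters in a window and carry no test.

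Promoters of 4 genes called higher and 2 called lower in all 3 lines are printed 5′ to 3′ on the strand of the gene, with each match to ACGTG or GCGTG on either strand in capitals, to show where the motif lies in genes whose values follow. CA9 is at chr9:35673678-35673977 (plus strand), ALDOC at chr17:28576846-28577145 (minus), ANKRD37 at chr4:185396591-185396890 (plus), P4HA1 at chr10:73096817-73097116 (minus), RRP9 at chr3:51941855-51942154 (minus) and ODC1 at chr2:10448278-10448577 (minus).
CA9: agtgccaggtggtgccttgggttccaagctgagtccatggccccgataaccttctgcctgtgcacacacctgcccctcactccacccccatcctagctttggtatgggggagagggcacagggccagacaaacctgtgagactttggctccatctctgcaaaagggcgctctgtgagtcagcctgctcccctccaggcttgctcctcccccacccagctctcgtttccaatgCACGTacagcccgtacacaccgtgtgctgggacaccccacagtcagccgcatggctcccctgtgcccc
ALDOC: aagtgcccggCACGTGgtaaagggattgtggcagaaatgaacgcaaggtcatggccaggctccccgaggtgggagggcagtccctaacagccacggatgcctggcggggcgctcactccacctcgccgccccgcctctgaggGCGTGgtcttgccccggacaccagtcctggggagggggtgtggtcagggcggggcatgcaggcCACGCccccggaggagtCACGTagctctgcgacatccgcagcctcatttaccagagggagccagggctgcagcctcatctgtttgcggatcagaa
ANKRD37: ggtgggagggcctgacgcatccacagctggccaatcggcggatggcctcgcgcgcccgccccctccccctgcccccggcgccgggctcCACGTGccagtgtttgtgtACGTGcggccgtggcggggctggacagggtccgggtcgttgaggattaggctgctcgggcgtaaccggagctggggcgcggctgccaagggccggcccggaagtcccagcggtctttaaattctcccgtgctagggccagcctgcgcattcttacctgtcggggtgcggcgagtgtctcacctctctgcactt
P4HA1: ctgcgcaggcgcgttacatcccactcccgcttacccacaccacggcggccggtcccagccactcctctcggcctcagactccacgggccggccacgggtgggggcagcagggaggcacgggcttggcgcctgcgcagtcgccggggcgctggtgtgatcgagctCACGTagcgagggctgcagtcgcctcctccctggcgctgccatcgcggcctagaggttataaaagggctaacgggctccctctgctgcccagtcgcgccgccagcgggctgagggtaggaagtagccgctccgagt
RRP9: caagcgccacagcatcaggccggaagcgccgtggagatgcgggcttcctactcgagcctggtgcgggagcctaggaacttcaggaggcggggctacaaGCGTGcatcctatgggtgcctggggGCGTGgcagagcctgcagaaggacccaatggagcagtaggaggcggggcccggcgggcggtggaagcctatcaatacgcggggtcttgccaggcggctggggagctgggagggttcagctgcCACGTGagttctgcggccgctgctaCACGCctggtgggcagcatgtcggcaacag
ODC1: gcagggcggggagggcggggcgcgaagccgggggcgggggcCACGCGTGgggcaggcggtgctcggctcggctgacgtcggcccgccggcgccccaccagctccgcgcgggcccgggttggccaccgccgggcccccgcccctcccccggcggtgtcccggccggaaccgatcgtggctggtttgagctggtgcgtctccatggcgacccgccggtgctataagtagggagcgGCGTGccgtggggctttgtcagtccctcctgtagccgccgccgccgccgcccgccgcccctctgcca
In CA9 the only match began at position -18 from the transcript start, and in P4HA1 at -86. ALDOC and RRP9 each held 5 matches, counting a CACGTG on both strands. The promoters of PDK1, MXI1, EGLN3 and MAT2A, which are described below, held no match in this window. Each gene was read at its first listed transcript start alone, and other starts of these genes were not searched.

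**Figure D3:**
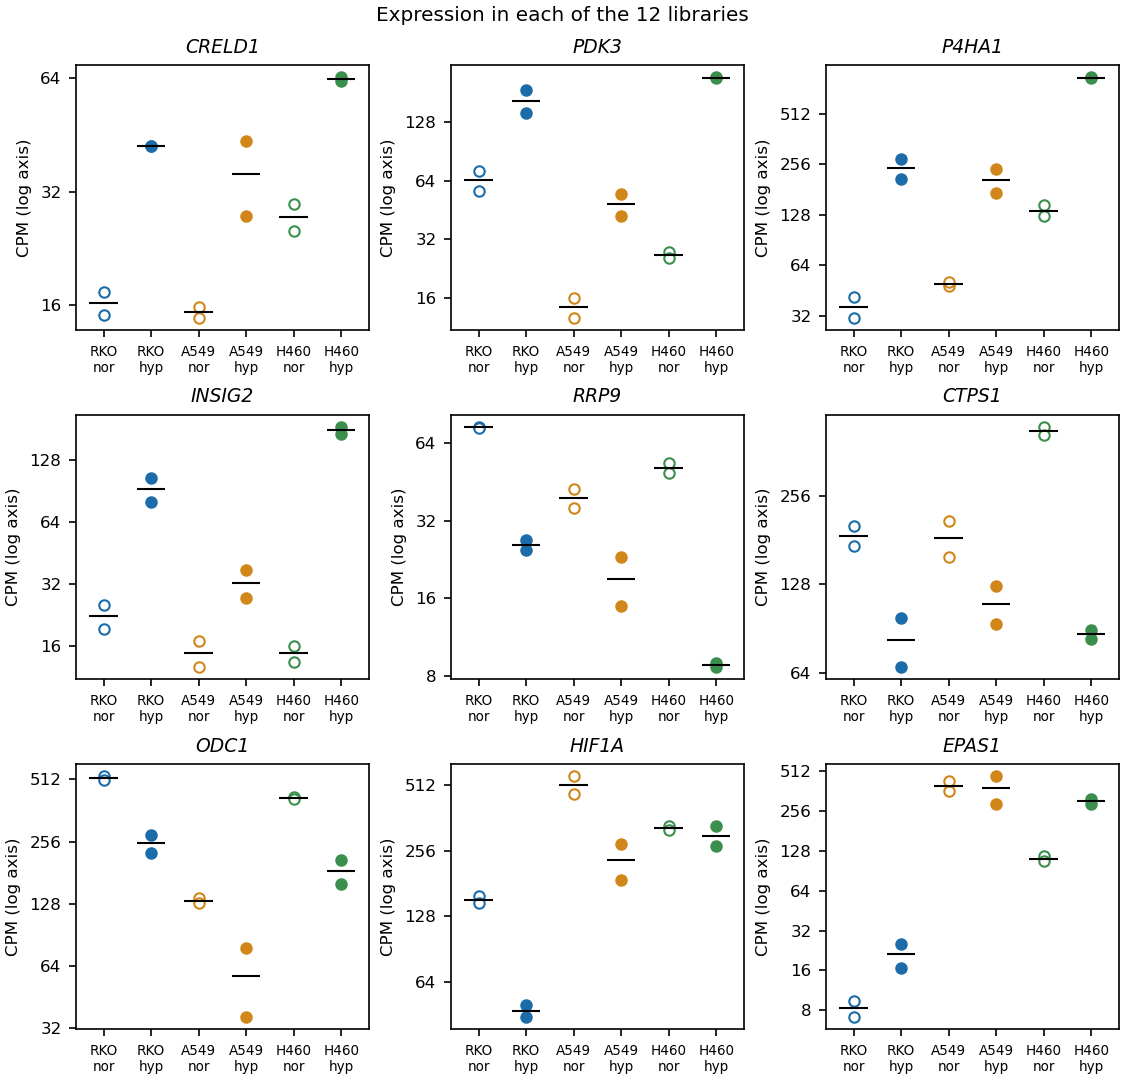
CPM (counts scaled to a common library depth with TMM factors, logarithmic axis) in each of the 12 libraries for 9 genes, open points for normoxia (nor) and filled points for hypoxia (hyp), with the mean of the 2 replicates as a bar. CRELD1, PDK3, P4HA1 and INSIG2 were higher and RRP9, CTPS1 and ODC1 lower in hypoxia in each line without overlap, whereas HIF1A overlapped in H460 and EPAS1 in A549.

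Gene lists are given with their counts and medians and with no test. Their average calls are to be read beside the shares of all genes tested, 14.8% higher and 11.5% lower. Where a list has 0 calls in a direction, DESeq2 also made 0, and at an unadjusted p under 0.05 at most 7 members moved that way, apart from the cytosolic ribosomal proteins. Of the 13 tested members of the oxygen sensing and HIF list, 5 rose and 2 fell on average, with a median of 0.15 beside 0.03 for all genes tested, and CITED2 was the only member called in all 3 lines. EGLN1, the main prolyl hydroxylase, was at 78.7 and 54.5 CPM in RKO normoxia and 169.5 and 138 CPM in RKO hypoxia, 92.9 and 122 against 121 and 131 CPM in A549, and 73.9 and 69.1 against 204 and 218 CPM in H460. It was higher in RKO and H460 without overlap, while the A549 libraries overlapped (log2 fold change 0.23, not called). EGLN1 rose by 1.00 ± 0.10 on average (log2 fold change ± SE, adjusted p = 4.26e-06). EGLN3, a prolyl hydroxylase known as a HIF target, was at 0.106 and 0.151 CPM in RKO normoxia and 0.0986 and 0.133 CPM in RKO hypoxia, 25.5 and 12.1 against 145 and 267 CPM in A549, and 13.8 and 10.2 against 53.2 and 78.6 CPM in H460. It was nearly absent from RKO in both conditions, and its average of 1.92 ± 0.41 came from A549 (3.45 ± 0.32) and H460 (2.46 ± 0.32). EGLN2, the remaining prolyl hydroxylase, overlaps the read-through gene RAB4B-EGLN2, was counted at no more than 2.74 CPM and was not called (-0.01 ± 0.19).

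The messages of the HIF subunits themselves changed unevenly. HIF1A was at 159 and 147 CPM in RKO normoxia and 44.2 and 50.4 CPM in RKO hypoxia, 463 and 561 against 275 and 188 CPM in A549, and 333 and 318 against 330.1 and 268 CPM in H460. The hypoxia libraries lay below normoxia in RKO and A549 and overlapped it in H460. HIF1A fell on average (-0.99 ± 0.10, adjusted p = 4.64e-06), with -1.69 in RKO, -1.14 in A549 and, not called, -0.12 in H460. EPAS1, which encodes the HIF2 alpha subunit, was at 9.43 and 7.13 CPM in RKO normoxia and 25.6 and 16.7 CPM in RKO hypoxia, 362 and 432 against 292 and 470.2 CPM in A549, and 118 and 107 against 317 and 292 CPM in H460. It was higher in hypoxia in RKO and H460 and overlapped in A549, with an average of 0.91 ± 0.13. ARNT, the common partner, rose by 0.83 ± 0.10 on average, and most in H460 (1.70 ± 0.17). ARNT2, its paralogue, fell on average (-0.92 ± 0.14), with -0.63 in RKO, -0.14 in A549 (not called) and -1.99 in H460.

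CITED2, a transcription cofactor that competes with HIF for EP300 and CREBBP, was at 8.82 and 6.18 CPM in RKO normoxia and 12.9 and 11.2 CPM in RKO hypoxia, 14.0 and 16.4 against 22.2 and 25 CPM in A549, and 33.1 and 28.3 against 233 and 252 CPM in H460. Hypoxia libraries were above normoxia in each line, by 0.69, 0.64 and 2.98. The other tested members were not called on average. VHL averaged 0.04 ± 0.08, HIF1AN, the asparaginyl hydroxylase, 0.11 ± 0.07, EP300 0.15 ± 0.10, CREBBP 0.09 ± 0.10, and CDK8, a Mediator kinase, 0.23 ± 0.10. For CDK8 the lines parted, with 1.05 called in H460 and -0.45, not called, in RKO.

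Glucose uptake and glycolysis had the highest median of the pathway lists. Of its 20 members 17 rose and 0 fell on average, 10 rose in all 3 lines, and the median was 1.07 (0.83 in A549, 0.86 in RKO and 1.27 in H460) beside 0.03 for all genes tested. The summed level of the list lay between 13134 and 18151 CPM in the 6 normoxia libraries and between 20253 and 50983 CPM in the 6 hypoxia libraries, without overlap over the lines. With scaling by library size alone 13 members rose and 10 rose in all 3 lines. ALDOC, a fructose bisphosphate aldolase, was at 37.0 and 17.5 CPM in RKO normoxia and 343 and 216 CPM in RKO hypoxia, 6.98 and 6.65 against 40.9 and 83.8 CPM in A549, and 27.6 and 25 against 352 and 336 CPM in H460. The conditions did not overlap in any line, and the effects of 3.36 ± 0.33 in RKO, 3.19 ± 0.34 in A549 and 3.71 ± 0.33 in H460 showed no detected difference between lines (interaction adjusted p = 0.630). ENO2, an enolase, was at 189 and 189.5 CPM in RKO normoxia and 1232 and 875 CPM in RKO hypoxia, 92.0 and 67.1 against 258 and 482 CPM in A549, and 35.0 and 31.5 against 1284 and 1073 CPM in H460. It also rose in each line, by 2.22 in A549, 2.48 in RKO and 5.15 in H460, and these sizes differed (interaction adjusted p = 1.27e-04).

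Of 18 genes for pyruvate and lactate handling, 5 rose and 1 fell on average (27.8% and 5.56%, against 14.8% and 11.5% of all genes). In all 3 lines 3 of them rose, and the median was -0.04. The risers called in all lines included kinases that switch off pyruvate dehydrogenase. PDK1 was at 71.1 and 46.7 CPM in RKO normoxia and 197 and 176 CPM in RKO hypoxia, 11.4 and 9.05 against 29.1 and 39.5 CPM in A549, and 174 and 158 against 494 and 466 CPM in H460. Every hypoxia library was above the normoxia libraries of its line, by 1.75 ± 0.20 in A549, 1.66 ± 0.19 in RKO and 1.53 ± 0.19 in H460 (interaction adjusted p = 0.806), although normoxia levels ran from 9.05 CPM in A549 to 174 CPM in H460. PDK3 was at 72.0 and 57.0 CPM in RKO normoxia and 187 and 143 CPM in RKO hypoxia, 16.1 and 12.7 against 42.5 and 55.0 CPM in A549, and 27.5 and 25.8 against 215 and 217 CPM in H460. Its effect was called in each line and largest in H460, at 3.02 ± 0.18 against 1.35 and 1.76. Of 12 pH regulators 2 rose in all 3 lines and 1 fell on average, and the risers were carbonic anhydrases of the cell surface. The average calls were 16.7% and 8.33% of this list, near or under the shares of all genes. CA9 was at 3.72 and 1.86 CPM in RKO normoxia and 54.0 and 73.0 CPM in RKO hypoxia, 5.74 and 2.53 against 195 and 226 CPM in A549, and 3.51 and 1.06 against 259.5 and 242 CPM in H460. It had the largest average of the genes named here, 5.66 ± 0.24, and its line effects of 4.51, 5.66 and 6.81 differed. CA12 was at 20.8 and 18.7 CPM in RKO normoxia and 37.6 and 34.5 CPM in RKO hypoxia, 193 and 109.8 against 503 and 594 CPM in A549, and 58.5 and 54.2 against 226 and 196 CPM in H460. Its hypoxia libraries were above normoxia in each line, with an average of 1.55 ± 0.12.

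Of 21 glycogen genes 9 rose and 1 fell on average and 2 rose in all 3 lines, with a median of 0.15 that became -0.01 with scaling by library size alone. GBE1, the glycogen branching enzyme, was at 50.1 and 43.9 CPM in RKO normoxia and 118 and 105 CPM in RKO hypoxia, 80.9 and 69.7 against 182 and 202 CPM in A549, and 109 and 105 against 441 and 436 CPM in H460. It rose in each line without overlap, by 1.35 ± 0.13 in A549, 1.24 ± 0.14 in RKO and 2.03 ± 0.13 in H460. PPP1R3B, which targets a phosphatase to glycogen, rose on average (1.66 ± 0.20) and in RKO (1.88) and H460 (2.15), while its A549 libraries overlapped, at 11.9 and 26.3 CPM in normoxia and 23.4 and 51.0 CPM in hypoxia.

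Among 21 angiogenic and vasoactive factors 11 rose and 1 fell on average and 3 rose in all 3 lines, with a median of 0.90. ANGPTL4, a secreted lipase inhibitor with vascular actions, was at 87.7 and 39.7 CPM in RKO normoxia and 152 and 158 CPM in RKO hypoxia, 52.9 and 96.1 against 408 and 1278 CPM in A549, and 38.7 and 31.0 against 495 and 539 CPM in H460. Hypoxia was above normoxia in each line, and the rise in RKO (1.28 ± 0.43) was smaller than in A549 (3.50 ± 0.42) and H460 (3.89 ± 0.43), the difference between the 3 lines passing the test (adjusted p = 0.00858). VEGFA, the main endothelial growth factor, which was read with the ATF4 list, was at 64.8 and 52.5 CPM in RKO normoxia and 158 and 121 CPM in RKO hypoxia, 83.6 and 135 against 206 and 476 CPM in A549, and 158 and 159 against 452 and 443 CPM in H460. Its line effects of 1.25 ± 0.30 in RKO, 1.64 ± 0.30 in A549 and 1.5 ± 0.30 in H460 showed no difference in the interaction test (adjusted p = 0.724). PDGFB, a growth factor for vessel-supporting cells, had 3 reads in the RKO normoxia libraries together and 10 in RKO hypoxia, and it was called in A549 (2.58 ± 0.53) and H460 (4.86 ± 1.27), with an average of 3.02 ± 0.86.

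Of 18 genes for collagen hydroxylation and cross-linking 7 rose and 0 fell on average and 3 rose in all 3 lines, with a median of 0.54. P4HA1, a catalytic subunit of collagen prolyl hydroxylase, was at 41.3 and 31.0 CPM in RKO normoxia and 273 and 209.7 CPM in RKO hypoxia, 47.7 and 50.6 against 173 and 239 CPM in A549, and 145 and 125 against 843 and 836 CPM in H460. The groups did not overlap in any line, and the effects were 2.74 ± 0.19 in RKO, 2.07 ± 0.19 in A549 and 2.64 ± 0.19 in H460. LOX, the collagen cross-linking oxidase, was at 1.06 and 1.1 CPM in RKO normoxia and 1.48 and 0.959 CPM in RKO hypoxia, 1.26 and 2.31 against 31.7 and 108 CPM in A549, and 0.461 and 0.411 against 22.2 and 19 CPM in H460. It stayed between 0.959 and 1.48 CPM in RKO and rose in A549 (5.28) and H460 (5.55), so that its average of 3.67 ± 0.31 describes no single line. In A549 the fibroblast marker COL1A1 was at 8.30 and 15.0 RPKM in normoxia and 21.9 and 69.7 in hypoxia, while COL1A2 and DCN were at or below 0.0259 RPKM in every library. Of the 7 fibroblast markers 5 were tested, and COL1A1 and PDGFRB were called higher on average, PDGFRB by 1.02 (adjusted p = 0.0127). By line PDGFRB was called in RKO alone, at no more than 0.0806 RPKM. In H460 it reached 2.37 RPKM and changed by 0.05. COL3A1, LUM and PDGFRA had average estimates below 0 and were not called, at no more than 2.79, 1.24 and 0.131 RPKM. The summed level of the markers in A549, most of it COL1A1, was 9.58 to 16.3 RPKM in normoxia and 23.1 to 71.0 RPKM in hypoxia. The part of the markers in the collagen results was not tested.

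Of 29 mitophagy and autophagy genes 11 rose and 0 fell on average and 4 rose in all 3 lines, with a median of 0.45. BNIP3L, a receptor that marks mitochondria for removal, was at 72.7 and 36.5 CPM in RKO normoxia and 404 and 293 CPM in RKO hypoxia, 85.2 and 111 against 295 and 404 CPM in A549, and 31.6 and 27.6 against 552 and 487 CPM in H460. It rose without overlap in each line, by 2.67, 1.83 and 4.13. TP53INP1, which links p53 to autophagy, was at 10.1 and 8.71 CPM in RKO normoxia and 176 and 151 CPM in RKO hypoxia, 20.3 and 11.4 against 24.1 and 26.7 CPM in A549, and 9.04 and 8.18 against 27.1 and 24.3 CPM in H460. It was called in all 3 lines, but its rise in RKO (4.11 ± 0.22) was far above that in A549 (0.68 ± 0.21), and the interaction passed (adjusted p = 2.37e-05). TP53INP1 also belonged to the p53 target list, of which 9 of 28 members rose and 0 fell on average, with a median of 0.35. The p53 targets were higher for 20 members in RKO, 1 in A549 and 8 in H460, where 18.9%, 6.14% and 22.9% of all genes were called higher. ZMAT3, an RNA-binding p53 target, averaged 1.12 ± 0.13, with 1.22 in RKO, 0.30 in A549 (not called) and 1.83 in H460.

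Of 23 genes that restrain mTORC1, 9 rose and 0 fell on average, and 0 were called in all 3 lines. A549 had 0 calls higher and H460 had 14. Of all genes, 6.14% were called higher in A549, 22.9% in H460 and 2.17% in all 3 lines. In a list of 23 genes, 0 calls in A549 and in all 3 lines are near these shares. DDIT4, which holds mTORC1 down through the TSC complex, was at 52.8 and 12.9 CPM in RKO normoxia and 182 and 99.6 CPM in RKO hypoxia, 127 and 283 against 185 and 624 CPM in A549, and 1046 and 936 against 2704 and 2772 CPM in H460. Its hypoxia values were above normoxia in RKO and H460 and overlapped in A549, and its average was 1.52 ± 0.33. Of 25 genes of the MYC network and clock repressors 11 rose and 0 fell on average, 2 of them in all 3 lines, with a median of 0.43. MXI1, a MAX partner that opposes MYC, was at 47.7 and 28.4 CPM in RKO normoxia and 96.3 and 54.4 CPM in RKO hypoxia, 5.12 and 6.80 against 15.8 and 34.6 CPM in A549, and 19.1 and 15.9 against 177 and 175 CPM in H460. It was called in each line, by 0.99, 2.08 and 3.33, which differed. BHLHE41, a clock repressor that was listed under both headings, averaged 2.15 ± 0.25 and was called in RKO (1.45) and H460 (3.94), but not in A549, where it was at or below 0.465 CPM.

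The JmjC demethylases use oxygen as a substrate. Of 28 such and related genes 10 rose and 4 fell on average, and 2 rose and 2 fell in all 3 lines. KDM3A, a histone demethylase, was at 75.4 and 62.4 CPM in RKO normoxia and 444 and 338 CPM in RKO hypoxia, 61.9 and 62.6 against 106 and 185 CPM in A549, and 54.0 and 53.9 against 405 and 379 CPM in H460. It rose in each line without overlap, by 1.22 in A549, 2.50 in RKO and 2.86 in H460. KDM7A, a demethylase of the same class, averaged 1.49 ± 0.24 and overlapped in A549 (0.62).

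Of 37 sterol and fatty acid synthesis genes 11 rose and 3 fell on average and 3 rose in all 3 lines, with a median of 0.13 that became -0.02 with scaling by library size alone. INSIG2, which retains the sterol sensor in the endoplasmic reticulum, was at 25.4 and 19.4 CPM in RKO normoxia and 105 and 80.5 CPM in RKO hypoxia, 12.6 and 16.9 against 27.5 and 37.5 CPM in A549, and 16.1 and 13.4 against 186 and 172 CPM in H460. Hypoxia was above normoxia in each line, and the effects of 2.05, 1.14 and 3.6 differed. STARD4, a cholesterol carrier, averaged 1.32 ± 0.09 and was called in all 3 lines, with 1.88 in RKO, 0.60 in A549 and 1.48 in H460. Of 39 genes of insulin, growth factor and feedback signalling 14 rose and 0 fell on average and 5 rose in all 3 lines. NDRG1, a stress-response gene of that list, was at 107 and 29.4 CPM in RKO normoxia and 1528 and 1243 CPM in RKO hypoxia, 39.3 and 51.6 against 675 and 1761 CPM in A549, and 20.0 and 17.1 against 1320.3 and 1205 CPM in H460. It had the second highest average of the genes called in all 3 lines with at least 100 reads a library, 5.06 ± 0.26, with no overlap in any line. STC1, a secreted glycoprotein, averaged 2.37 ± 0.21 from A549 (1.92) and H460 (4.47), and was below 1 CPM in all RKO libraries.

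Of 18 iron genes 3 rose and 1 fell on average (16.7% and 5.56%), near or under the 14.8% and 11.5% of all genes. CP, ceruloplasmin, the copper ferroxidase that helps iron leave cells, was at 0.0797 and 0.0502 CPM in RKO normoxia and 5.32 and 4.64 CPM in RKO hypoxia, 17.8 and 16.6 against 79.1 and 131 CPM in A549, and 7.98 and 4.37 against 26.1 and 36.3 CPM in H460. It rose in each line without overlap, most in RKO (6.20 ± 0.87), where its normoxia level was lowest, against 2.61 in A549 and 2.35 in H460. The size in RKO rested on 3 and 2 reads in the normoxia libraries, against 216 and 174 in hypoxia. SLC25A37, the mitochondrial iron importer, averaged 0.98 ± 0.14, with -0.02 in RKO (not called), 1.00 in A549 and 1.97 in H460. Among 32 ATF4 targets 2 rose and 7 fell on average (6.25% and 21.9%), VEGFA being the only member called in all 3 lines. Lower calls numbered 13 in A549, 2 in RKO and 9 in H460, where 2.82%, 11.0% and 24.6% of all genes were called lower. The medians were -0.82, 0.07 and -0.04 in that order. The summed level in A549 was 5374 and 8619 CPM in normoxia and 4786 and 4530 CPM in hypoxia, so normoxia replicate 2 stood apart. CHAC1, a glutathione-degrading enzyme, showed how replicates can part, at 20.0 and 1.31 CPM in RKO normoxia and 14.3 and 5.94 CPM in RKO hypoxia, 2.41 and 24.7 against 1.20 and 0.785 CPM in A549, and 46.6 and 49.9 against 23.6 and 23.5 CPM in H460. Its average of -1.62 ± 0.55 was called, but the A549 normoxia replicates lay far apart, and RKO overlapped.

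Among the 12 shared genes with the highest average were several that belonged to none of the pathway lists. EFEMP2, an elastic fibre protein, was at 0.877 and 0.552 CPM in RKO normoxia and 11.9 and 8.66 CPM in RKO hypoxia, 4.57 and 8.17 against 12.3 and 31.8 CPM in A549, and 1.95 and 2.40 against 66.3 and 61.3 CPM in H460. YPEL1, a member of the yippee family, was at 2.31 and 1.63 CPM in RKO normoxia and 24.8 and 12.3 CPM in RKO hypoxia, 0.524 and 0.589 against 1.87 and 2.85 CPM in A549, and 0.532 and 0.323 against 14.3 and 10.5 CPM in H460. ANKRD37, an ankyrin repeat protein, was at 3.40 and 2.28 CPM in RKO normoxia and 36.4 and 14.7 CPM in RKO hypoxia, 1.38 and 1.47 against 2.73 and 7.85 CPM in A549, and 2.41 and 1.96 against 86.6 and 87.4 CPM in H460. In all 3 genes each hypoxia library exceeded the normoxia libraries of its line, A549 changed least and H460 most, and the averages were 3.50 ± 0.24, 3.39 ± 0.24 and 3.45 ± 0.26. GPR146, an orphan receptor, was at 0.505 and 0.151 CPM in RKO normoxia and 2.83 and 1.95 CPM in RKO hypoxia, 0.858 and 0.785 against 2.54 and 3.64 CPM in A549, and 0.248 and 0.381 against 17.4 and 17.8 CPM in H460. C4orf47 was at 0.345 and 0.226 CPM in RKO normoxia and 1.01 and 1.12 CPM in RKO hypoxia, 0.334 and 0.221 against 1.89 and 3.78 CPM in A549, and 0.319 and 0.176 against 23.5 and 28.9 CPM in H460. DNAH11, an axonemal dynein heavy chain, was at 0.0531 and 0 CPM in RKO normoxia and 0.173 and 0.293 CPM in RKO hypoxia, 2.10 and 3.36 against 15.5 and 13.8 CPM in A549, and 0.568 and 0.205 against 24.6 and 27.2 CPM in H460. These genes were below 1 CPM in normoxia in H460 and between 17.4 and 28.9 CPM there in hypoxia, so that H460 set most of their averages of 3.51 ± 0.25, 3.98 ± 0.26 and 3.84 ± 0.45, and DNAH11 in RKO rested on 2 reads in normoxia and 18 in hypoxia.

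Of 33 long noncoding and small RNA host genes 5 rose and 10 fell on average (15.2% and 30.3%, against 14.8% and 11.5% of all genes). In all 3 lines 4 rose and 3 fell. MIR210HG, the host transcript of the microRNA miR-210, was at 4.70 and 2.36 CPM in RKO normoxia and 40.6 and 35.8 CPM in RKO hypoxia, 8.05 and 3.04 against 26.0 and 56.4 CPM in A549, and 9.08 and 5.92 against 124 and 124 CPM in H460. It rose by 2.89 ± 0.41 in A549, 3.44 ± 0.42 in RKO and 4.05 ± 0.41 in H460, and the interaction test found no difference between lines (adjusted p = 0.257). The mature microRNA was not measured by poly(A)+ libraries. H19, an imprinted RNA, had 0 reads in H460 normoxia and 7 in H460 hypoxia, which makes it at least 2.77-fold higher there with a floor of 3 counts over the group. In A549 it was at 3.24 and 3.41 CPM in normoxia and 10.1 and 32.8 CPM in hypoxia. TM4SF1-AS1, antisense to TM4SF1, had 0 reads in RKO normoxia and 45 in RKO hypoxia, at least 14.9-fold higher, and it was at 1.81 and 2.09 against 3.98 and 9.43 CPM in A549 and at 2.62 and 3.9 against 6.67 and 8.59 CPM in H460. Neither fitted average is given because it depends on the prior count.

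**Figure D4:**
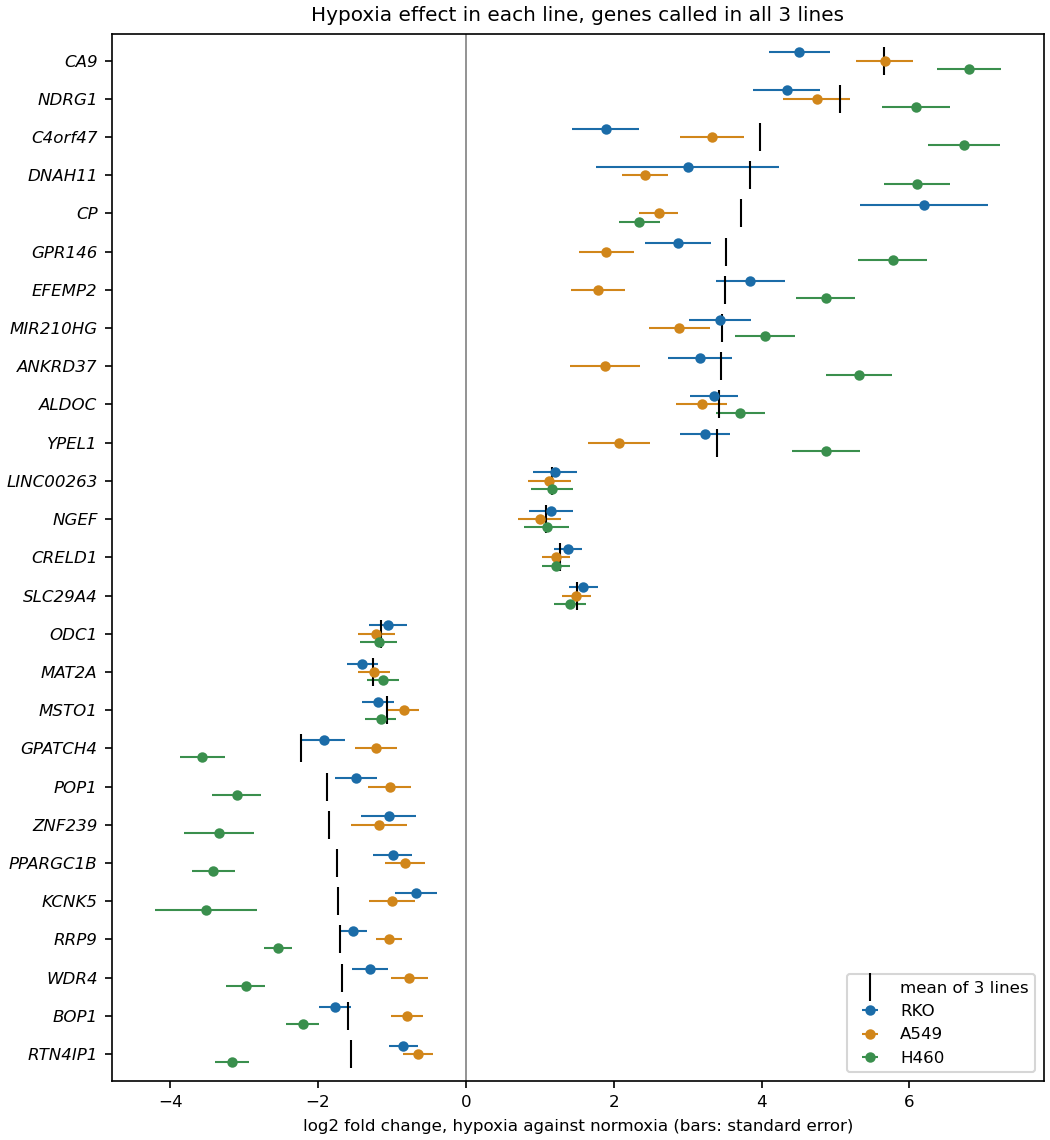
Log2 fold change (hypoxia against normoxia) in RKO, A549 and H460 with standard errors, and the mean of the 3 lines (vertical tick), for shared genes with the largest averages in either direction and for those with the most even effect. TM4SF1-AS1 is not drawn because RKO normoxia had no read. H460 lies furthest from 0 for most of the highest and all 9 of the lowest genes drawn, and the lines lie close together for LINC00263 to MSTO1.

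Some genes changed by similar amounts in each line, and these were chosen for that evenness, which is therefore no result. SLC29A4, a monoamine transporter, was at 11.4 and 12 CPM in RKO normoxia and 37.3 and 33.1 CPM in RKO hypoxia, 15.8 and 12.2 against 32.8 and 46.2 CPM in A549, and 3.55 and 4.11 against 11.1 and 9.39 CPM in H460, with effects of 1.59, 1.49 and 1.41. CRELD1, an endoplasmic reticulum protein, was at 15.0 and 17.3 CPM in RKO normoxia and 42.3 and 42.2 CPM in RKO hypoxia, 14.7 and 15.8 against 27.5 and 43.6 CPM in A549, and 29.6 and 25.1 against 62.9 and 64.5 CPM in H460, with effects of 1.39, 1.22 and 1.22. Neither gene overlapped between conditions in any line. NGEF, a guanine nucleotide exchange factor, averaged 1.08 ± 0.17, and LINC00263, a noncoding RNA, 1.17 ± 0.17.

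Falling genes chosen by the same rule were ODC1, MAT2A and MSTO1. ODC1, ornithine decarboxylase, the first enzyme of polyamine synthesis, was at 530.1 and 511 CPM in RKO normoxia and 226 and 275 CPM in RKO hypoxia, 136 and 129 against 78.2 and 36.2 CPM in A549, and 419 and 412 against 207 and 159 CPM in H460. The 3 effects were -1.05 ± 0.25 in RKO, -1.21 ± 0.25 in A549 and -1.18 ± 0.25 in H460. MAT2A, which makes S-adenosylmethionine, was at 317 and 375 CPM in RKO normoxia and 101 and 161 CPM in RKO hypoxia, 849 and 1252 against 468 and 421 CPM in A549, and 1289.9 and 1432 against 627 and 627 CPM in H460. Its effects were -1.40 ± 0.22 in RKO, -1.24 ± 0.21 in A549 and -1.12 ± 0.21 in H460. Both genes were below normoxia in each hypoxia library of the same line. MSTO1, a mitochondrial distribution protein with a close copy in MSTO2P that could share its reads, averaged -1.06 ± 0.12.

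Ribosome biogenesis was the list with the lowest median and the one with the largest number of shared lower genes. Of its 97 members 0 rose and 77 fell on average, against 11.5% of all genes, and the median was -0.87 (-0.51 in A549, -1.08 in RKO and -1.12 in H460). In all 3 lines 29 members were called lower, which is 29.9% of the list and 20.9% of the 139 shared lower genes. Without A549 hypoxia replicate 2 this count was 3 and without replicate 1 it was 58, while 69 and 81 fell on average. The summed level of the list was 16378 and 15988 CPM in RKO normoxia and 7140.4 and 7854 CPM in hypoxia. It was 11944 and 10459 against 9435 and 7239 CPM in A549, and 12186 and 12390 against 8380.1 and 8085 CPM in H460. No hypoxia library reached the normoxia libraries of its line.

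RRP9, a protein of the small nucleolar particle that guides early cleavage of ribosomal RNA precursors, was at 74.2 and 73.5 CPM in RKO normoxia and 24.6 and 26.8 CPM in RKO hypoxia, 42.4 and 35.9 against 23.1 and 15.0 CPM in A549, and 53.6 and 49.0 against 8.61 and 8.94 CPM in H460. It fell in each line, with -1.52 ± 0.18 in RKO, -1.04 ± 0.18 in A549 and -2.55 ± 0.19 in H460. BOP1, which is needed to mature the large subunit, was at 127 and 154 CPM in RKO normoxia and 37.0 and 45.2 CPM in RKO hypoxia, 214 and 145 against 128 and 79.4 CPM in A549, and 83.6 and 80.1 against 19.3 and 16.2 CPM in H460. Its conditions did not overlap in any line, with an average of -1.59 ± 0.13. POP1, a subunit of the ribonucleases that process transfer and ribosomal RNA, was at 158 and 164 CPM in RKO normoxia and 43.7 and 71.4 CPM in RKO hypoxia, 60.9 and 33.3 against 28.3 and 17.7 CPM in A549, and 29.5 and 30.1 against 2.79 and 4.10 CPM in H460. It averaged -1.87 ± 0.17 and was lowest against normoxia in H460 (-3.10). RRS1, another assembly factor, averaged -1.94 ± 0.22 and fell in RKO (-2.0) and H460 (-2.82), while -1.0 in A549 was not called.

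GPATCH4, a nucleolar protein, had the lowest average among shared genes with at least 100 reads a library and was at 86.4 and 92.2 CPM in RKO normoxia and 17.7 and 29.4 CPM in RKO hypoxia, 84.2 and 82.9 against 50.1 and 21.8 CPM in A549, and 86.2 and 87.4 against 7.43 and 7.23 CPM in H460. The effects were -1.92 in RKO, -1.21 in A549 and -3.56 in H460, which differed, and the average was -2.23 ± 0.17. WDR4, a partner of the transfer RNA methyltransferase, was at 36.4 and 46.2 CPM in RKO normoxia and 13.3 and 20.4 CPM in RKO hypoxia, 39.6 and 35.0 against 27.6 and 16.2 CPM in A549, and 48.4 and 43.8 against 5.11 and 6.57 CPM in H460. Hypoxia was below normoxia in each line, with an average of -1.68 ± 0.15. KCNK5, a potassium channel, averaged -1.73 ± 0.27, and ZNF239, a zinc finger protein, -1.85 ± 0.24.

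Proteins of the ribosome itself were read apart from its assembly factors. Of 78 cytosolic ribosomal proteins 0 rose and 0 fell on average in edgeR and in DESeq2, 50 being higher and 0 lower at an unadjusted p under 0.05. The median was 0.25 (0.09 with scaling by library size alone). However, 31 of the 78 were called higher in H460, where 22.9% of all genes were called higher. Processed pseudogenes limit the counting of this family. Of 36 aminoacyl-tRNA synthetases 12 fell and 1 rose on average, 4 fell in all 3 lines, and the median was -0.41. FARSB, a phenylalanyl-tRNA synthetase subunit, was at 98.2 and 84.1 CPM in RKO normoxia and 40.1 and 39.0 CPM in RKO hypoxia, 89.4 and 74.5 against 66.0 and 40.4 CPM in A549, and 139 and 135 against 31.4 and 30.7 CPM in H460. It fell in each line without overlap, with -1.21, -0.62 and -2.14. MARS2, the mitochondrial methionyl-tRNA synthetase, averaged -1.28 ± 0.18 and overlapped in A549.

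Mitochondrial lists fell more weakly. Of 83 mitochondrial ribosomal proteins 25 fell and 0 rose on average, 1 in all 3 lines, with a median of -0.44. MRPL20 was at 87.0 and 83.0 CPM in RKO normoxia and 27.5 and 36.2 CPM in RKO hypoxia, 55.3 and 48.1 against 42.6 and 31.7 CPM in A549, and 60.7 and 57.3 against 20.9 and 19.9 CPM in H460. MRPL4 was at 131 and 126 CPM in RKO normoxia and 55.4 and 61.4 CPM in RKO hypoxia, 57.8 and 49.7 against 43.4 and 34.7 CPM in A549, and 61.5 and 57.5 against 23.0 and 25.8 CPM in H460. In both, hypoxia was below normoxia in each line, but A549, at -0.48 and -0.46, was not called. Of 49 chaperones and import factors 20 fell and 0 rose on average, 2 of them in all 3 lines, with a median of -0.53. TIMM10, a carrier chaperone between the membranes, was at 35.4 and 31.8 CPM in RKO normoxia and 8.85 and 13 CPM in RKO hypoxia, 52.3 and 42.4 against 31.2 and 21.9 CPM in A549, and 47.8 and 51.0 against 14.2 and 14.7 CPM in H460, and changed by -1.62, -0.84 and -1.77. TOMM40, the outer membrane pore, averaged -1.36 ± 0.13 and was called lower in all 3 lines.

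Of 78 subunits of oxidative phosphorylation 7 fell (8.97%, against 11.5% of all genes) and 1 rose (1.28%, against 14.8%) on average, with a median of -0.22. NDUFA4L2, a subunit paralogue known as a HIF target, was the riser, at 0.531 and 0.678 CPM in RKO normoxia and 1.63 and 1.31 CPM in RKO hypoxia, 0.667 and 3.51 against 1.01 and 0.785 CPM in A549, and 7.34 and 5.66 against 77.5 and 96.2 CPM in H460. It was called in RKO and H460, overlapped in A549 and averaged 1.27 ± 0.29. ATP5G1, an ATP synthase ring subunit, averaged -1.20 ± 0.13, with -1.14 in RKO and -2.09 in H460. In the TCA cycle, 2 of 24 members fell (8.33%) and 1 rose (4.17%), both under these shares of all genes. IDH3A averaged -0.81 ± 0.09 and IDH2 1.15 ± 0.11, the first being the catalytic subunit of the NAD-dependent and the second the NADP-dependent isocitrate dehydrogenase of mitochondria.

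PPARGC1B, a coactivator of mitochondrial gene programmes, was at 30.3 and 42.4 CPM in RKO normoxia and 17.0 and 19.7 CPM in RKO hypoxia, 18.6 and 9.84 against 9.08 and 7.01 CPM in A549, and 31.1 and 33.5 against 2.57 and 3.44 CPM in H460. RTN4IP1, a mitochondrial oxidoreductase, was at 19.3 and 15.6 CPM in RKO normoxia and 9.22 and 10.2 CPM in RKO hypoxia, 17.6 and 16.2 against 12 and 9.54 CPM in A549, and 16.0 and 16.0 against 1.48 and 2.05 CPM in H460. Both were lower in hypoxia in each line without overlap, but by no more than -0.99 in RKO and -0.82 in A549, beside -3.42 and -3.17 in H460, and each differed between lines (largest interaction adjusted p = 5.02e-04).

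Of 39 genes for one-carbon and nucleotide synthesis 16 fell and 2 rose on average, 4 fell in all 3 lines, and the median was -0.44. PFAS, a purine synthesis enzyme, was at 158 and 192 CPM in RKO normoxia and 56.8 and 90.1 CPM in RKO hypoxia, 198 and 191 against 136 and 85.1 CPM in A549, and 201 and 212 against 35.7 and 37.9 CPM in H460. CTPS1, which makes CTP, was at 173 and 202 CPM in RKO normoxia and 66.9 and 98.8 CPM in RKO hypoxia, 158 and 209.9 against 126 and 94.1 CPM in A549, and 439 and 412 against 89.4 and 83.9 CPM in H460. Both fell in each line without overlap, PFAS with -1.26, -0.82 and -2.49 and CTPS1 with -1.18, -0.74 and -2.30.

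DNA replication fell on average, but mainly in H460. Of its 61 members 37 fell and 0 rose on average, with a median of -0.75, made of -0.27 in RKO, -0.29 in A549 and -1.67 in H460, and 3 were called in all 3 lines. Lower calls numbered 20 in RKO, 5 in A549 and 52 in H460, where 11.0%, 2.82% and 24.6% of all genes were called lower. MCM6, a subunit of the replicative helicase, was at 202 and 190.3 CPM in RKO normoxia and 118 and 117 CPM in RKO hypoxia, 121 and 81.9 against 104 and 57.9 CPM in A549, and 147 and 152 against 13.3 and 13.6 CPM in H460. It fell in RKO (-0.74) and H460 (-3.47) and overlapped in A549. MCM10, an initiation factor, averaged -1.69 ± 0.21, with -3.94 in H460 and -0.45 and -0.67 in RKO and A549, neither of which was called. Of 57 mitosis genes 3 fell and 0 rose on average, under the background, with a median of -0.08. MYBL2, a transcription factor of dividing cells, averaged -0.85 ± 0.11 and ZWINT, a kinetochore protein, -0.68 ± 0.13, both called in H460 alone.

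Of 20 common reference genes 2 rose and 1 fell on average (10.0% and 5.00%), below the 14.8% and 11.5% of all genes. PGK1, a glycolytic enzyme with processed pseudogenes, was at 812 and 591 CPM in RKO normoxia and 2817 and 2466 CPM in RKO hypoxia, 685 and 542 against 2042 and 2449 CPM in A549, and 831 and 699 against 4606 and 4459 CPM in H460. It rose in each line, by 1.91, 1.87 and 2.57. GAPDH, whose pseudogenes limit its counting likewise, averaged 1.04 ± 0.12, but with 0.23 in RKO, where its libraries overlapped, 0.75 in A549 and 2.14 in H460.

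The acute response list comes from the study, which defined it in HCT116 cells, another colon line, as genes whose nascent RNA and messenger RNA both rose. The copy used here held 408 genes and is shorter than the list the study describes, so shares are of this copy. Of its 403 tested members 305 rose and 1 fell on average, against 14.8% and 11.5% of all genes, and 100 rose in all 3 lines, which is 24.8% of the list and 29.5% of the 339 shared higher genes. The median was 1.00, with 0.59 in A549, 0.85 in RKO and 1.53 in H460. Without A549 hypoxia replicate 2 the number called in all 3 lines was 50, and without replicate 1 it was 132. The lists together held 113 of the 339 shared higher genes (33.3%) and 48 of the 139 shared lower genes (34.5%), and the others lie outside them.

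An average can also stand on a single line. Of the higher calls 357 were called in RKO alone, 30 in A549 alone and 422 in H460 alone, and of the lower calls 83, 7 and 671. ITGA2B, an integrin subunit, was at 0.133 and 0.201 CPM in RKO normoxia and 0.271 and 0.240 CPM in RKO hypoxia, 4.93 and 5.42 against 6.32 and 9.66 CPM in A549, and 7.06 and 3.81 against 207 and 208 CPM in H460. Its average of 2.16 ± 0.24 came from H460 (5.27 ± 0.24), with 0.60 and 0.62 in the other lines, not called. PAEP, a secreted lipocalin, was called in H460 (3.75 ± 0.35), where it was at 1.67 and 1.82 CPM in normoxia and 21.6 and 25.4 CPM in hypoxia. GNG4, a G protein gamma subunit, was called in A549 (2.20 ± 0.23), at 10.6 and 10.5 against 39.2 and 57.9 CPM. MYOM3, a sarcomere protein, was called there too (1.44 ± 0.38).

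Several of the genes called in a single line were near absent from that line, and their average is not given. TMEM59L had 0 reads in RKO normoxia and 41 in RKO hypoxia, at least 13.6-fold higher. VEPH1 had 7 reads in H460 normoxia and 0 in hypoxia, at least 1.96-fold lower. IL31RA, a cytokine receptor, had 2 and 17 reads in RKO normoxia and hypoxia, and SGCD, a sarcoglycan, 3 and 0. Each of these genes had a higher level in another line, where its change was not called.

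For 475 genes that were not called on average, 2 lines were called in opposite directions, and 5624 uncalled genes were called in some line. CYP4F3, a fatty acid hydroxylase with close relatives such as CYP4F2, was at 0.0266 and 0.0251 CPM in RKO normoxia and 0.123 and 0.640 CPM in RKO hypoxia, 13.9 and 11.2 against 2.90 and 4.28 CPM in A549, and 7.02 and 5.01 against 0.211 and 0.209 CPM in H460. It rose in RKO, from 2 to 29 reads, and fell in A549 (-1.81 ± 0.36) and H460 (-4.82 ± 0.64). BEST3, an anion channel, rose in RKO from 7.15 and 5.30 CPM to 19.2 and 21.6 CPM, and had 5 reads in H460 normoxia and 0 in hypoxia. FLG-AS1, a noncoding RNA, rose in RKO from 0.133 and 0.427 CPM to 0.986 and 2.13 CPM, and had 10 reads in H460 normoxia and 0 in hypoxia.

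**Figure D5:**
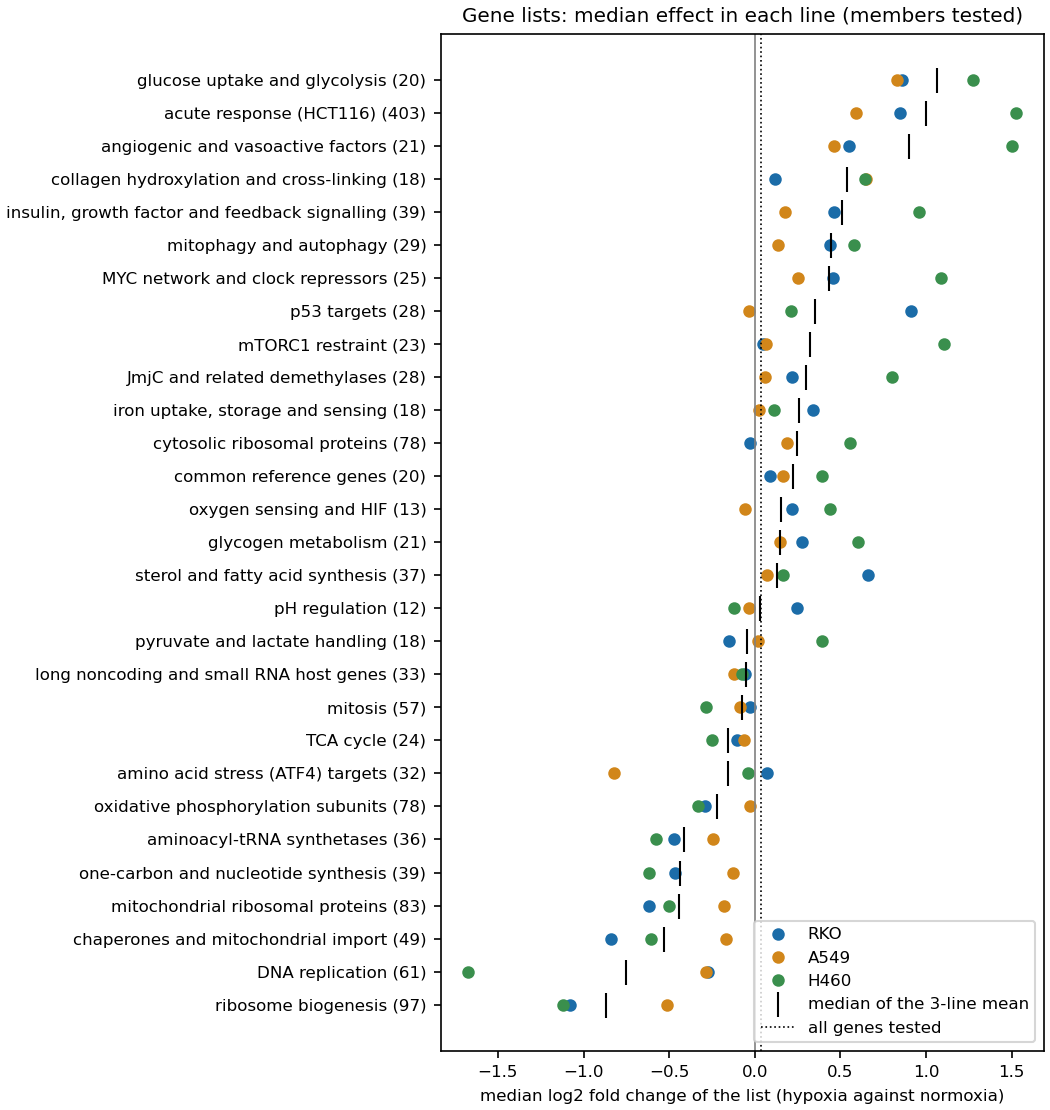
Median log2 fold change of each gene list in RKO, A549 and H460 (points) and of the mean of the 3 lines (tick), with the number of members tested in brackets and the median of all genes tested as a dotted line at 0.03. Glycolysis lies highest and ribosome biogenesis lowest with the lines on the same side of 0, whereas DNA replication at -1.67 is set apart by H460 and the p53 targets at 0.91 by RKO.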

How the data were processed

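Poly(A)+ libraries were read from a single end. Per the study's methods, the authors aligned with TopHat2 2.0.13 to GRCh37/hg19, discarded poorly mapping alignments, flagged duplicates with Picard 1.129 and counted exon reads per gene with HTSeq 0.6.1, reverse-stranded. The deposited counts entered every main fit. The deposited RPKM values (reads scaled for gene length and library depth, computed by the authors from the same counts) served for marker levels and as an alternative unit.

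All 12 libraries were fitted together (edgeR 4.0.16, R 4.3.3) by a quasi-likelihood F test after TMM scaling, with 1 mean for each of the 6 groups, for genes over 0.5 CPM in at least 2 libraries. The contrast averaged the 3 line effects, and each line's effect and 2 interaction terms came from the same fit. All 12 libraries shared 1 estimate of the spread per gene, so a line's SE is not the spread of its own replicates. In fits of each line alone the coefficient of variation between replicates was 7.91% in H460, 15.0% in RKO and 18.9% in A549. The SE and p of a line can thus be too small for A549 and too large for H460. Shared genes were called in each line's contrast at adjusted p under 0.1 and fold over 1.5. The code was tested on simulated data. Alternatives were DESeq2 1.42.0, limma 3.58.1 on log2 RPKM with a pseudocount of 0.1 or 1, other scalings and filters, left-out libraries and lines, and a replicate block. With 2 replicates a group the median SE of the average was 0.11. The SE and p of an average rest on the spread of replicates within groups. They hold no spread between lines and do not measure agreement over lines. Members of the gene lists and all comparisons were chosen with earlier results of these data known. With at least 100 reads a library on average, the named genes were the 12 highest and 10 lowest called in all lines, the 7 most even, those called in 1 line or in opposite directions with the largest change, and, from each list, the 2 called members with the largest average, and all tested members of the oxygen sensing list. Of the 10 lowest, 1 gene is not reported here and was not replaced.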

Additional observations from a re-analysis of the deposited data

Results flagged for a closer look

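For 73 of the 96 named genes a joint test of 2 interaction terms (edgeR, adjusted p under 0.1) found that the effect of hypoxia differed between the lines, beside 48.8% of all genes tested. Most named genes were picked by their values in these data, some for calls in a single line or in opposite directions. Their share is therefore no result to set against that of all genes. Each difference below is between the 2 lines whose log2 fold changes lay furthest apart, a pair picked by its values.

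Genes with estimates above 0 in all 3 lines and highest in H460 made up the largest set. The A549 effect minus the H460 effect was -3.68 for DNAH11, -3.87 for GPR146, -3.08 for EFEMP2, -3.44 for ANKRD37, -2.80 for YPEL1, -3.30 for PAEP, -2.34 for CITED2 and -2.93 for ENO2. It was -2.30 for BNIP3L, -2.88 for BHLHE41, -1.64 for KDM3A, -1.62 for KDM7A, -2.46 for INSIG2, -0.69 for PGK1, -1.53 for ZMAT3, -1.52 for ARNT and -1.33 for EGLN1. The RKO effect minus the H460 effect was -2.30 for CA9, -1.75 for NDRG1, -4.85 for C4orf47, -4.67 for ITGA2B, -1.67 for PDK3 and -1.03 for CA12. It was -0.79 for GBE1, -2.61 for ANGPTL4, -5.40 for LOX, -2.34 for MXI1, -1.91 for GAPDH and -3.74 for STC1.

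Genes with estimates below 0 in all 3 lines and lowest in H460 gave differences above 0. The A549 effect minus the H460 effect was 2.35 for GPATCH4, 2.07 for POP1, 2.60 for PPARGC1B, 1.51 for RRP9, 2.21 for WDR4, 1.41 for BOP1, 2.52 for RTN4IP1, 1.82 for RRS1 and 1.06 for MRPL20. It was 0.83 for MRPL4, 1.72 for ATP5G1, 0.98 for IDH3A, 1.52 for FARSB, 3.14 for MCM6, 1.67 for PFAS, 1.56 for CTPS1, 0.94 for TIMM10, 1.24 for TOMM40 and 1.85 for ARNT2. The RKO effect minus the H460 effect was 2.30 for ZNF239, 2.84 for KCNK5, 3.50 for MCM10, 1.71 for MYBL2 and 1.21 for ZWINT.

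Other genes with estimates above 0 throughout were highest in RKO. The RKO effect minus the H460 effect was 3.85 for CP and 1.28 for IDH2, and the RKO effect minus the A549 effect was 3.44 for TP53INP1 and 1.28 for STARD4. For CP the RKO normoxia libraries held only 3 and 2 reads. HIF1A, with estimates below 0 throughout, was lowest in RKO, at -1.57 for the RKO effect minus the H460 effect.

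The sign of the estimate was not the same in every line for the following genes, and not each estimate was called. The RKO effect minus the H460 effect was 8.51 for CYP4F3, -1.99 for SLC25A37 and -1.50 for CDK8. The A549 effect minus the H460 effect was 2.23 for GNG4, -4.95 for NDUFA4L2, -1.50 for EPAS1 and -0.58 for HIF1AN. EGLN3, with at most 6 reads in any RKO library, was at -3.61 for the RKO effect minus the A549 effect.

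A group with no read entered the last set, so these differences depend on a prior count and are no measure of size. The RKO effect minus the H460 effect was 6.15 for TM4SF1-AS1, 6.76 for TMEM59L, 5.20 for VEPH1, 8.0 for FLG-AS1 and 6.30 for BEST3. The RKO effect minus the A549 effect was -3.74 for SGCD, and the A549 effect minus the H460 effect was -2.98 for IL31RA.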

How the results depend on the processing

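The counts of genes higher and lower on average and in all 3 lines were recomputed under each alternative that gives them, and the count differing between lines under DESeq2, library size scaling, the replicate block and the left-out libraries. The 4 former counts under DESeq2, RLE factors and both other filters, and the latter under DESeq2, were within 1.5 times. Over the 12 omissions of a library the counts ran from 2041 to 2468 higher and 1589 to 2027 lower on average, from 95 to 551 higher and 7 to 400 lower in all 3 lines, and from 5338 to 8093 for genes that differed between lines. The A549 libraries decided the shared counts: without A549 normoxia replicate 1 there were 91 lower, without hypoxia replicate 1 551 and 400, and without hypoxia replicate 2 95 and 7. Scaling by library size alone gave 240 genes lower in all 3 lines. With limma on log2 RPKM, pseudocount 0.1, 1524 genes were higher on average, 201 higher and 251 lower in all 3 lines, and 2522 lower on average. With a pseudocount of 1, 869 were higher and 1773 lower on average, and 132 and 215 in all 3 lines. Without H460 the mean of the remaining lines gave 882 lower genes. A fold change over 2 left 1102 and 615 on average and 149 and 12 in all 3 lines. Fitting each line on its own libraries left 116 and 13, and adjusting the largest of the 3 line p values left 132 and 29. The cause was not tested, other than that a higher threshold calls fewer genes.

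Of the 96 named averages, 10 changed sign under some alternative. For CYP4F3, EGLN2, HIF1AN, VHL, CREBBP and CDK8 the average was called neither before nor after. The others were SGCD at 0.000900 (limma, pseudocount 1), MYOM3, which ran from -0.18 without RKO hypoxia replicate 2 to 2.07 without RKO normoxia replicate 1, and FLG-AS1 at 1.24 and BEST3 at 0.66 (without H460). Each of these 4 had a line with at most 7 reads in any library. The named genes that lost their call were at most 14 under any alternative, when H460 was left out.

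The replicate numbers gave no sure pairing. Between same-numbered hypoxia and normoxia libraries of a line, deviations from the group mean correlated by 0.0797 (H460), 0.229 (RKO) and 0.290 (A549) across 15595 genes, and the labels name no shared batch or day. With the replicate block 2343 genes were higher and 1828 lower on average, 453 and 223 in all 3 lines, and 9423 differed between lines.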
